A study of Mus musculus with 10 samples.

Results

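The 32 genes described here encode the enzymes that break glucose down to lactate, the transporters for glucose and lactate, and the sensors and best-known targets of the cellular response to low oxygen. They were taken by gene name from a table of 22740 protein-coding genes, and all 32 were found and also passed the filter on low counts, which kept 13731 genes. RNA was sequenced from the oesophagus of C57BL/6 mice, all of which had received 4-NQO, a quinoline compound that forms DNA adducts and gives rise to squamous tumours. The groups were 5 Grhl3 KO mice, a conditional knockout by the series title, and 5 wild-type mice. Grhl3 encodes a transcription factor of the grainyhead family that acts in covering epithelia. The columns of the Grhl3 KO libraries carry the word "L2Cre", whose driver the labels leave unnamed, and a conditional deletion leaves Grhl3 in any cell without active Cre. The sample labels call the Grhl3 KO tissue a tumour and the wild-type tissue only oesophageal tissue, although the design text speaks of tumours from both, so genotype and tissue label cannot be told apart. Age, sex and length of exposure are not given in the labels.

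Glycolysis splits glucose into pyruvate in the cytosol and yields ATP without oxygen. When oxygen is short, prolyl hydroxylases no longer mark the HIF1A protein for destruction, HIF1A accumulates, and with its partner ARNT it binds hypoxia response elements near genes for glycolytic enzymes, lactate export, pH control and blood vessel growth. Squamous epithelia draw their oxygen from vessels below the basal layer, and many squamous tumours show strong glucose uptake through GLUT1, the product of Slc2a1. Much of this control acts on the HIF1A protein, which RNA counts do not measure.

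The hypoxia response element has the core ACGTG, and promoters are where these genes have their best-studied elements, so the core was searched in the RefSeq promoter table of build GRCm38.p6. The table held 31 of the 32 genes, 1 of them matched by a synonym, with 45 windows that reach from 250 bases before a start to 50 bases after it; Ndrg1 was not matched. On either strand ACGTG stood in 27 of 45 windows (60%), against 24.5% of 13004 windows of all genes tested and 19.6% of all 32851 windows. Windows of 1 gene with several starts can overlap; of the 31 genes, 24 held it in at least 1 window. With GCGTG counted as well the shares were 80% for these genes, 60.2% for all genes tested and 43.8% for all windows. The palindrome CACGTG, which holds the core on both strands and so counts as 2 overlapping matches, stood in 6 windows. The grainyhead consensus AAC N GGTT, searched on both strands, stood in 2 windows, those of Hk1 and Aldoc (4.44%), against 1.8% of windows of all genes tested. The windows had a median GC content of 63.3%, against 60.3% for all genes tested, and the shares were not corrected for it. A match describes letters in a window and does not show that a factor binds there. The 250 bases before the start are shown 5′ to 3′ for 4 genes on which the results below turn, with ACGTG or its reverse complement CACGT in capitals.
Pgk1, plus strand, chrX:106186850-106187099: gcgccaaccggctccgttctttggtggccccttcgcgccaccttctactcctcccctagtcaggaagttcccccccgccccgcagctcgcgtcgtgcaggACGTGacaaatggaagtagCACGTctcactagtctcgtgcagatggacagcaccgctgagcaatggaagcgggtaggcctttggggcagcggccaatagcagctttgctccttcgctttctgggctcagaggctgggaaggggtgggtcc
Ldha, plus strand, chr7:46845554-46845803: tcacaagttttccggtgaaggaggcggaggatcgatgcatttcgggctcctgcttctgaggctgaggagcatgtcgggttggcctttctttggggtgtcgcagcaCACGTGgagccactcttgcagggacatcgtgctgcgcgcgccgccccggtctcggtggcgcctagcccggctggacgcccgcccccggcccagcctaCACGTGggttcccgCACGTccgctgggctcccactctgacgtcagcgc
Car9, plus strand, chr4:43506776-43507025: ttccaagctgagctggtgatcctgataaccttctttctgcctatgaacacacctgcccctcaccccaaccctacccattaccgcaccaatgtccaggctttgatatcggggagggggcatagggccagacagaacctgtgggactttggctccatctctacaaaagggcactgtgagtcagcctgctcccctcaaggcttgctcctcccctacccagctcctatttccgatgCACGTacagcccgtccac
Ddit4, minus strand, chr10:59951771-59952020: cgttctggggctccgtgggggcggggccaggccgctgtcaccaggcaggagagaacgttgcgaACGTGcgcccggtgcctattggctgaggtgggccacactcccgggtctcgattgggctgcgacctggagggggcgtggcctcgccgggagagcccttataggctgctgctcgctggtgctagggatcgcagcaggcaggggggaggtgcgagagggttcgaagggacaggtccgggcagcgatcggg
Pgk1 and Ldha are the classic glycolytic HIF targets and varied together across libraries, Car9 had the fold change furthest from 0, and Ddit4 had the smallest p. The Pgk1 stretch holds 2 cores and the Ldha stretch 5 matches, 2 CACGTG palindromes among them; a second RefSeq start of Ldha has none. Car9 and Ddit4 hold 1 core each.

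Libraries held 15.3 to 32.9 M counts (M, the SI prefix mega). Grhl3 KO libraries averaged 24.8 ± 8.21 M counts, against 19.9 ± 2.17 M counts for wild type, given as mean ± SD of 5 libraries like all such values below (two-sided exact permutation p = 0.246). Levels are counts per M (CPM) of TMM-scaled library size, and fold changes are Grhl3 KO over wild type on the log2 scale. Grhl3 itself lay at 135 to 317 CPM in Grhl3 KO, against 109 to 363 CPM in wild type (log2 fold change 0.11, edgeR adjusted p = 0.979), so the counts do not separate the labelled genotypes; they sum reads over the whole gene and do not show a missing exon. The epithelial marker Krt14 was high in every library, at 16854 to 19568 CPM in Grhl3 KO, against 13163 to 20532 CPM in wild type. Krt13 ranged more widely, from 8366 to 20771 CPM in Grhl3 KO, against 4958 to 43057 CPM in wild type. Crnn was low, at 4.78 to 11.2 CPM in Grhl3 KO, against 1.90 to 7.07 CPM in wild type. The wild-type libraries carry numbers of 2 kinds: 1028 and 1048 lie among those of the 5 Grhl3 KO libraries, which run from 1026 to 1043, and 1528, 1555 and 1561 lie far off. Summed Y-linked RNA ran from 162 to 203 CPM in Grhl3 KO, stood at 154 and 177 CPM in wild type 1028 and 1048, and was 0.0527, 0.0539 and 72.3 CPM in wild type 1528, 1555 and 1561. What the numbers stand for is not given, and number, Y-linked content and genotype cannot be told apart for these 3 libraries. The labels list the libraries as separate samples of 10 mice, and p-values measure the spread between them.

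The genes of glycolysis and of the hypoxia response had counts in all 10 libraries, and none of them passed the test for a difference between the groups. In edgeR's quasi-likelihood test 0 of 32 passed an adjusted p of 0.05 over all genes, where 11 of 13731 genes (0.0801%) did. DESeq2 and limma voom also called 0 of the 32. Before adjustment 1 gene, Ddit4, had an edgeR p under 0.05, against 7.16% of all genes. In 0 of 32 genes did the groups separate without overlap, against 1.35% of all genes. The fitted log2 fold changes ran from −0.48 for Car9 to 0.34 for Hif1a, and all 32 lay within 0.5 of 0, as did 89.7% of all genes. Fitted levels were below wild type in 22 of 32 genes, against 50.3% of all genes, with a median log2 fold change of −0.05 against −0.00 over all genes. For 28 of the 32 the 95% limits excluded a change as large as 2-fold in either direction; a smaller difference in these genes could go undetected with 5 libraries a group.

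**Figure D1:**
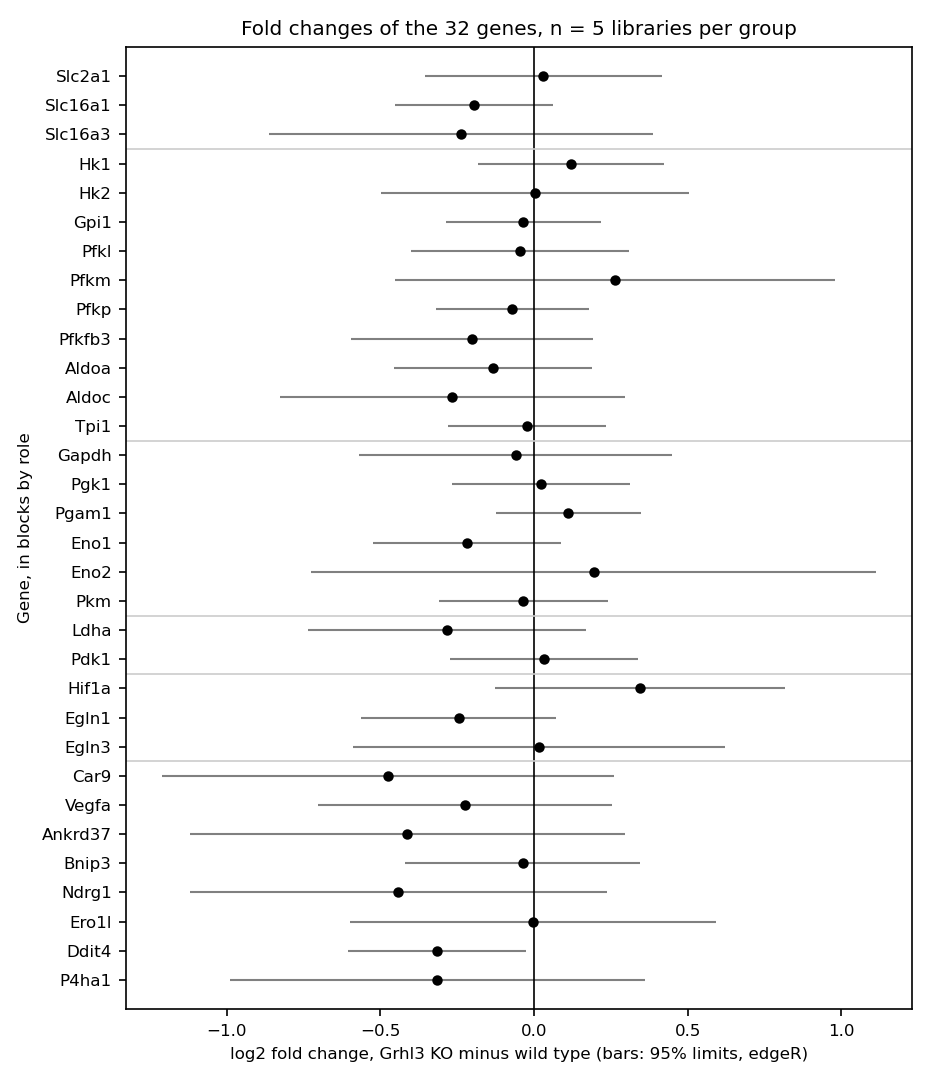
Log2 fold changes of the 32 genes, Grhl3 KO minus wild type, on the x axis, in blocks by role down the y axis; points are edgeR estimates from 5 libraries per group and bars their 95% limits. The points lie between −0.48 (Car9) and 0.34 (Hif1a), and the bars of all genes except Ddit4 cross 0. The 8 points of the hypoxia-inducible effectors lie left of 0, those of Ero1l and Bnip3 close to it.

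Of the transporters, Slc2a1 encodes GLUT1, which brings glucose into epithelial cells, and the products of Slc16a1 (MCT1) and Slc16a3 (MCT4) carry lactate. Slc2a1 was one of the most abundant of the 32 genes. Its levels were 982, 1325, 1087, 1074 and 897 CPM in Grhl3 KO 1026, 1027, 1035, 1036 and 1043, and 752, 1304, 835, 1293 and 1068 CPM in wild type 1028, 1048, 1528, 1555 and 1561. The groups overlapped over most of their ranges, with means of 1073 ± 161 CPM in Grhl3 KO, against 1050.3 ± 255 CPM in wild type. The log2 fold change was 0.03 (SE 0.18, 95% limits −0.36 to 0.42, edgeR adjusted p = 0.989). Slc16a1 stood at 156, 159, 132, 164 and 121 CPM in the 5 Grhl3 KO libraries and at 139, 153, 182, 192 and 172 CPM in the 5 wild-type libraries, in the same order. Wild type 1528, 1555 and 1561 lay above every Grhl3 KO library, and wild type 1028 and 1048 lay within the Grhl3 KO range (log2 fold change −0.20, SE 0.12, edgeR adjusted p = 0.792). Slc16a3 averaged 143 ± 22.9 CPM in Grhl3 KO, against 169 ± 64.0 CPM in wild type, where library 1028 held 62.3 CPM and the other 4 held 155 to 215 CPM.

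**Figure D2:**
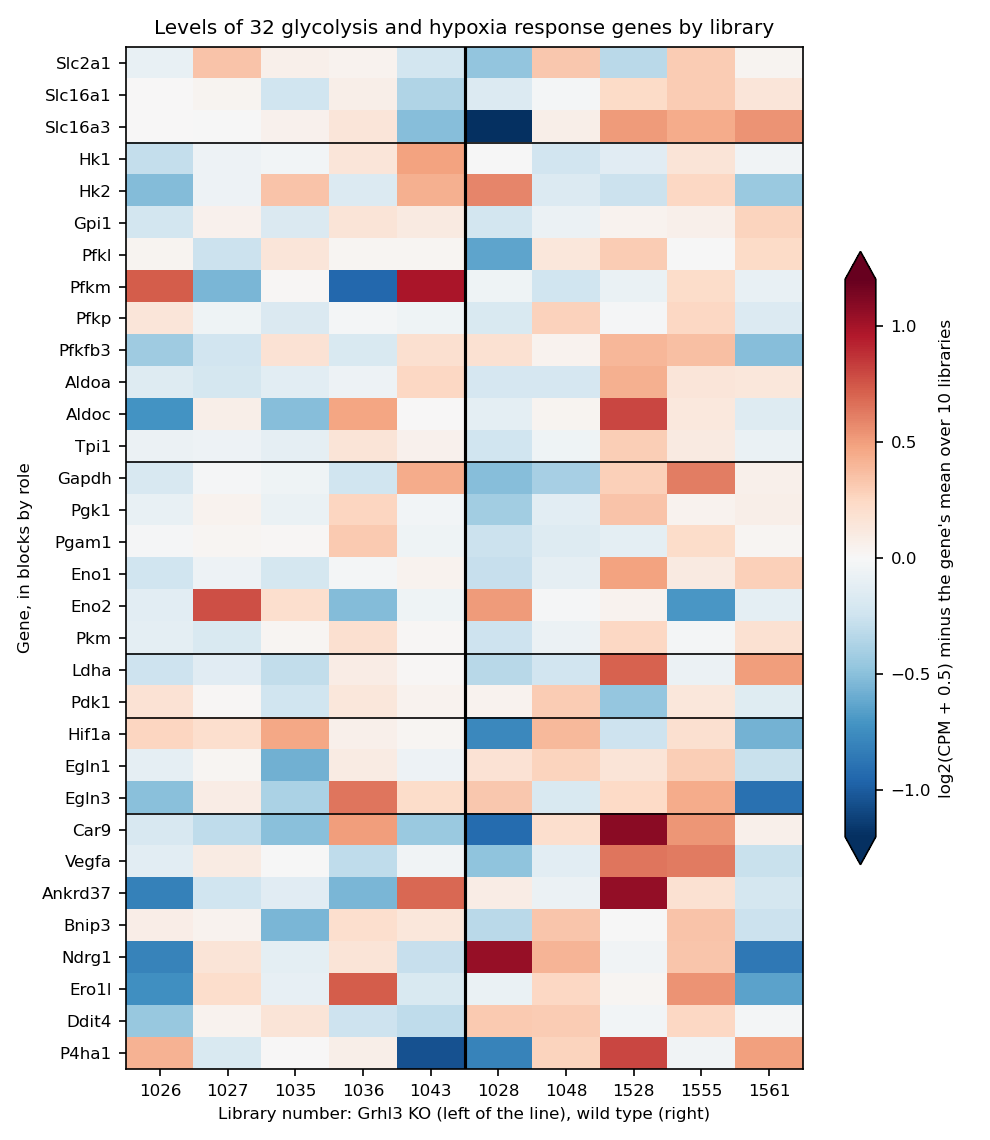
Level of each of the 32 genes (rows, in blocks by role) in each library (columns, the 5 Grhl3 KO libraries left of the line and the 5 wild-type libraries right of it), coloured by the difference in log2 CPM from the gene's mean over all 10. The 2 columns that stand out are wild type 1028, lowest for 14 genes, and wild type 1528, highest for 13.

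In the upper part of the pathway, hexokinases trap glucose as its phosphate, phosphofructokinases make the committed step and aldolases split the sugar. Of these 10 genes 0 were called, with 3 fitted above and 7 below wild type. Hk2, the hexokinase that HIF1A induces, stood at 108, 148, 197, 139 and 209 CPM in Grhl3 KO, against 233, 138, 129.8, 185 and 113 CPM in wild type. The highest and the lowest library belonged to opposite groups, and the log2 fold change was 0.00 (SE 0.23, 95% limits −0.50 to 0.50). Aldoa, the main aldolase here, stood at 1114, 1072, 1138, 1191 and 1469 CPM in Grhl3 KO, against 1081, 1075, 1671, 1370.4 and 1362 CPM in wild type. Its log2 fold change was −0.13 (SE 0.15, edgeR adjusted p = 0.915), and the groups overlapped. Hk1, the constitutive hexokinase, averaged 234 ± 48.2 CPM in Grhl3 KO, against 216 ± 21.6 CPM in wild type, and Gpi1, the phosphoglucose isomerase, 343 ± 39.4 CPM in Grhl3 KO, against 351 ± 44.3 CPM in wild type. The liver-type phosphofructokinase gene Pfkl stood at 287 ± 28.7 CPM in Grhl3 KO, against 296 ± 67.0 CPM in wild type and the platelet-type gene Pfkp at 240.2 ± 19.7 CPM in Grhl3 KO, against 252.25 ± 38.6 CPM in wild type. Pfkfb3, whose product makes the sugar phosphate that activates phosphofructokinase, averaged 65.9 ± 12.3 CPM in Grhl3 KO, against 75.8 ± 17.2 CPM in wild type. Aldoc, a minor aldolase, averaged 17.2 ± 5.73 CPM in Grhl3 KO, against 20.7 ± 6.53 CPM in wild type. Tpi1, the triose phosphate isomerase, averaged 1003 ± 78.1 CPM in Grhl3 KO, against 1018 ± 145 CPM in wild type.

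Pfkm encodes the muscle-type phosphofructokinase, and its level followed that of skeletal muscle genes. It stood at 61.9, 25.2, 37.5, 19.1 and 73.7 CPM in Grhl3 KO, against 35.7, 31.4, 35.1, 43.3 and 34.9 CPM in wild type. Both the highest and the lowest library were Grhl3 KO, and the log2 fold change was 0.26 (SE 0.32, 95% limits −0.45 to 0.98, edgeR adjusted p = 0.926). The mouse oesophagus has a coat of skeletal muscle, and the 28 skeletal muscle genes examined, none of them at 0 throughout, summed to 959 to 7181 CPM in Grhl3 KO, against 1684 to 3842 CPM in wild type (exact two-sided permutation p = 0.690). Of these, 27 were tested, 0 were called and 27 had fitted levels above wild type, against 6829 of 13731 genes tested. The Grhl3 KO libraries did not go one way in the sum. Grhl3 KO 1026 and 1043 (4544 and 7181 CPM) lay above every wild-type library, and 1027 and 1036 (1191 and 959 CPM) below every one. Across the 10 libraries the sum and Pfkm were correlated with Pearson's r = 0.97 and Spearman's rho = 0.99 (permutation p = 1e-05 for r, the smallest that 100000 resamples give, and 0.00013 after adjustment over 13 pairs of measures). Without Grhl3 KO 1026 and 1043, the libraries furthest from the median sum, r was 0.94, and over the 7 libraries numbered from 1026 to 1048 it was 0.99. With the muscle genes' mean as a covariate the log2 fold change of Pfkm was −0.09, and without Grhl3 KO 1043 it was −0.02. The same sum gave r = 0.28 with Aldoa, −0.21 with Ldha and 0.32 with Hk2, with adjusted permutation p from 0.614 to 0.656. In bulk tissue, fewer cells of a type and less RNA per cell cannot be told apart.

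The lower part of the pathway recovers ATP, through phosphoglycerate kinase and pyruvate kinase. None of its 6 genes was called, and 3 had fitted levels above and 3 below wild type. Pgk1 stood at 96.1, 105, 96.2, 122 and 99.6 CPM in Grhl3 KO, against 76.3, 93.0, 129, 105 and 107 CPM in wild type. The Grhl3 KO values lay inside the wild-type range, and the log2 fold change was 0.02 (SE 0.13, 95% limits −0.27 to 0.31). Eno1, the main enolase, stood at 223, 253, 229, 259.7 and 272 CPM in Grhl3 KO, against 218, 245, 368, 285 and 323 CPM in wild type. Wild type 1528, 1555 and 1561 again lay above all Grhl3 KO libraries, and the log2 fold change was −0.22 (SE 0.14, edgeR adjusted p = 0.799). Pkm, the pyruvate kinase outside liver and red cells, averaged 1691 ± 170.4 CPM in Grhl3 KO, against 1733 ± 239 CPM in wild type. Pgam1, the phosphoglycerate mutase, averaged 102 ± 11.02 CPM in Grhl3 KO, against 94.5 ± 12.5 CPM in wild type. Gapdh, the glyceraldehyde phosphate dehydrogenase, had only 12.9 ± 2.77 CPM in Grhl3 KO, against 13.5 ± 4.54 CPM in wild type. Eno2, the neuronal enolase, was the lowest of all with 1.14 ± 0.579 CPM in Grhl3 KO, against 1.01 ± 0.436 CPM in wild type, and its limits (−0.73 to 1.11) were the widest of the 32.

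Pyruvate is reduced to lactate by the product of Ldha, and Pdk1 encodes a kinase that switches pyruvate dehydrogenase off. Ldha stood at 1578, 1709.8, 1530.4, 1997 and 1892 CPM in Grhl3 KO, against 1491, 1603, 3061, 1789.5 and 2656 CPM in wild type. The Grhl3 KO libraries were close together, and wild type 1528 and 1561 stood above them all. The log2 fold change was −0.28 (SE 0.21, 95% limits −0.74 to 0.17, edgeR adjusted p = 0.833). Pdk1 stood at 129, 116, 97.2, 127 and 119 CPM in Grhl3 KO, against 118, 142, 83.3, 127 and 104 CPM in wild type, with the lowest value in the library where Ldha was highest, wild type 1528. On the log2 scale the groups differed by 0.03 (95% limits −0.27 to 0.34).

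Among the oxygen sensors, Hif1a encodes the subunit that oxygen destabilises, and Egln1 and Egln3 encode the prolyl hydroxylases PHD2 and PHD3. Hif1a stood at 1425, 1379, 1650.4, 1247 and 1213 CPM in Grhl3 KO, against 697, 1569, 1006, 1366 and 809 CPM in wild type. The wild-type libraries covered a wider range, with 3 of the 5 below every Grhl3 KO library. Hif1a had the highest fold change of the 32 genes (0.34, SE 0.21, 95% limits −0.13 to 0.81) and did not pass the test (edgeR adjusted p = 0.795). Egln1 stood at 267, 293, 194, 310.2 and 277 CPM in Grhl3 KO, against 326, 348, 322, 355 and 239 CPM in wild type, so that 4 of the 5 wild-type libraries lay above all Grhl3 KO libraries. The log2 fold change was −0.25 (SE 0.14, 95% limits −0.56 to 0.07, edgeR adjusted p = 0.787). Egln3, itself a HIF target, averaged 431 ± 139.7 CPM in Grhl3 KO, against 426 ± 137 CPM in wild type.

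The 8 hypoxia-inducible effectors all had fitted levels below wild type, against 50.3% of all genes. Their median log2 fold change was −0.32, and 0 were called. Ero1l (−0.0025) and Bnip3 (−0.04) lay close to 0 and turned positive on leaving out a library (up to 0.14 and 0.07). Ddit4, an inhibitor of the growth kinase mTOR that stress and hypoxia induce, stood at 119.5, 169.6, 182, 138 and 133 CPM in Grhl3 KO, against 205, 203, 161, 196 and 161 CPM in wild type. Wild type 1028, 1048 and 1555 lay above all Grhl3 KO libraries and the other 2 inside their range. The log2 fold change was −0.32 (SE 0.13, 95% limits −0.61 to −0.03, edgeR adjusted p = 0.668). Car9, a carbonic anhydrase at the cell surface and a textbook hypoxia marker, was low throughout. It stood at 15.1, 14.0, 12.1, 24.9 and 12.7 CPM in Grhl3 KO, against 8.91, 20.01, 37.3, 25.2 and 18.1 CPM in wild type, with the lowest and the highest value both in wild type. Its fold change of −0.48 had wide limits (SE 0.33, −1.21 to 0.26, edgeR adjusted p = 0.824). Vegfa, the vascular growth factor, stood at 264, 309, 288, 235 and 280.5 CPM in Grhl3 KO, against 207, 265, 451, 445 and 239.7 CPM in wild type. Wild type 1528 and 1555 lay above the Grhl3 KO range and the other 3 lay in or below it (log2 fold change −0.23, SE 0.22, edgeR adjusted p = 0.896).

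Ndrg1, a stress-responsive gene that is also linked to differentiation, had the widest absolute spread of the effectors. It stood at 492, 954, 788, 955 and 709 CPM in Grhl3 KO, against 1771, 1139.6, 831, 1078 and 472 CPM in wild type. Wild type 1028, at 1771 CPM, was also the library with the highest summed suprabasal keratinocyte RNA, and the part of that content in the Ndrg1 level was not tested. That sum over 10 genes, none at 0 throughout, ran from 17683 to 39881 CPM in Grhl3 KO. In wild type it ran from 12986 to 79092 CPM (exact two-sided permutation p = 0.786), with Krt13 and Krt4 the most abundant. Of the 10 genes 9 had fitted levels below wild type, with 0 called. Before adjustment 4 were lower and 1 higher at an edgeR p under 0.05, against 7.16% of all genes in either direction. For Ndrg1 the log2 fold change was −0.44 (SE 0.31, 95% limits −1.12 to 0.24, edgeR adjusted p = 0.824). Ankrd37, an ankyrin repeat gene that HIF1A induces, stood at 7.86, 11.9, 12.9, 9.53 and 23.1 CPM in Grhl3 KO, against 15.04, 13.4, 29.95, 16.1 and 12.2 CPM in wild type. The groups overlapped, with 1 high library in each (log2 fold change −0.41, SE 0.32, edgeR adjusted p = 0.853). Bnip3, a mitophagy receptor, averaged 129.7 ± 24.0 CPM in Grhl3 KO, against 133 ± 28.9 CPM in wild type. P4ha1, a collagen prolyl hydroxylase subunit, averaged 65.1 ± 21.3 CPM in Grhl3 KO, against 80.9 ± 30.5 CPM in wild type (log2 fold change −0.31, SE 0.31). Ero1l, an oxidase of protein folding in the endoplasmic reticulum, averaged 183 ± 68.7 CPM in Grhl3 KO, against 183 ± 52.7 CPM in wild type.

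**Figure D3:**
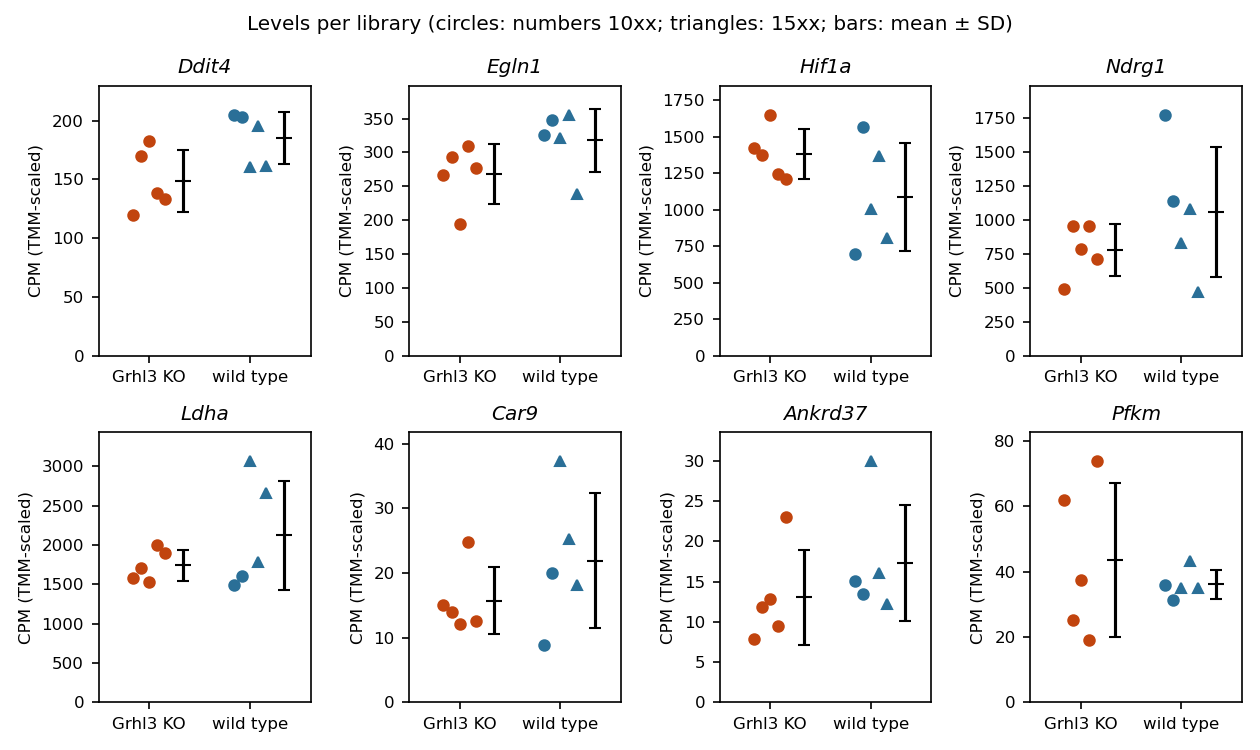
CPM in each library for selected genes, Grhl3 KO left and wild type right in each panel; circles are libraries numbered 1026 to 1048, triangles wild type 1528, 1555 and 1561, and bars mean ± SD of 5 libraries. The groups overlap in every panel, and in Ldha the triangles of wild type 1528 and 1561 (3061 and 2656 CPM) stand above all other points.

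Levels of different genes were compared per kb of annotated exons. Ldha was first with 526 CPM per kb in Grhl3 KO and 641 in wild type, followed by Aldoa with 411 in Grhl3 KO and 451 in wild type. Tpi1 (364 in Grhl3 KO, 370.0 in wild type), Pkm (338 in Grhl3 KO, 347 in wild type) and Slc2a1 (306 in Grhl3 KO, 299.6 in wild type) came next, and neighbours among these 5 genes overlapped in their ranges over libraries. Hif1a reached 235 in Grhl3 KO and 185 in wild type. The effectors ranged from 118 in Grhl3 KO and 160.5 in wild type for Ndrg1 to 6.83 in Grhl3 KO and 9.51 in wild type for Car9. Gapdh, usually among the most abundant transcripts of a cell, was listed at 3.13 in Grhl3 KO and 3.26 in wild type, with only Eno2 lower. Of its annotated transcript, 88.0% was at least 95% identical to parts of 82 other genes, 78 of them pseudogenes. Bnip3 (94.2%), Eno1 (85.6%), Pgk1 (68.8%), Pkm (65.5%), Gpi1 (55.4%) and Ldha (55.0%) were also at least 50% near-identical to other genes, and 15 of the 32 had no such stretch. No source used here says how multi-mapping reads were handled, so the levels of these 7 genes are uncertain, and so is any fold change in them.

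**Figure D4:**
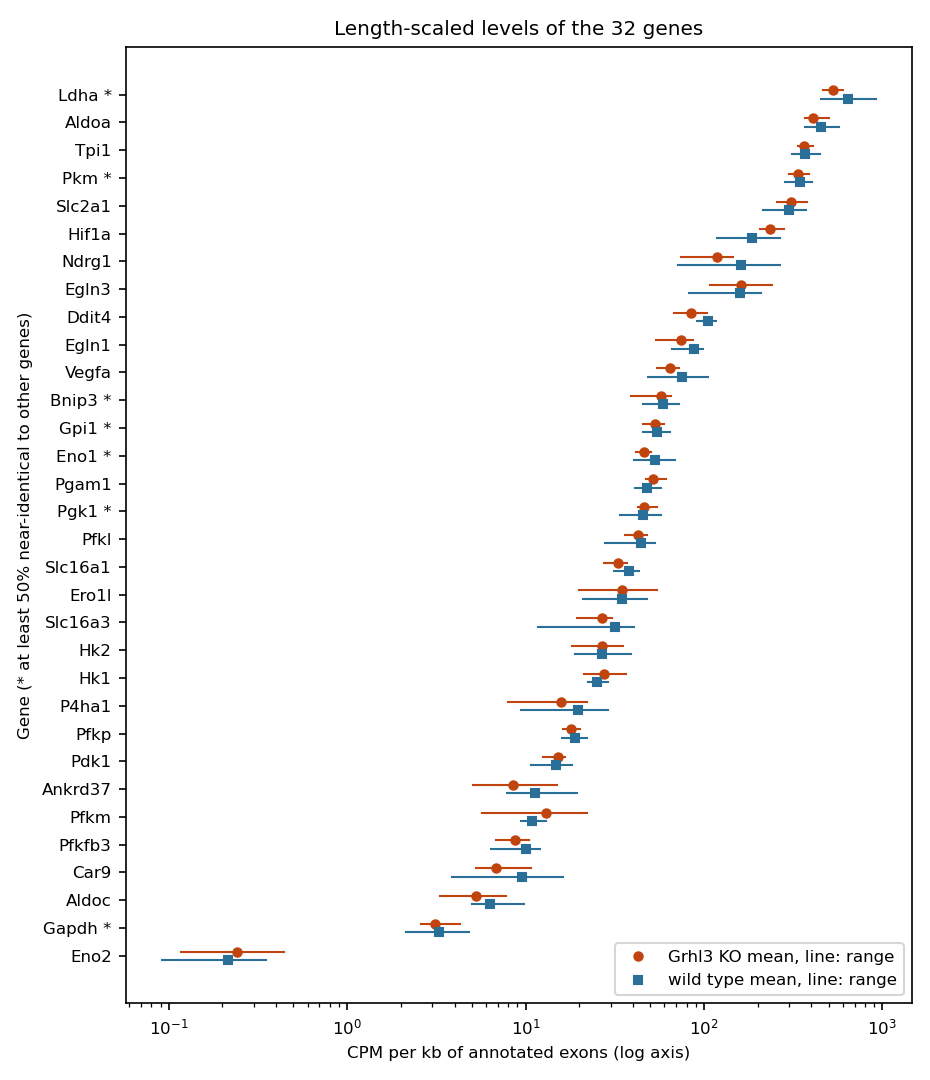
Length-scaled level of each gene in CPM per kb of annotated exons (x axis, logarithmic), genes in order of level down the y axis; circles are Grhl3 KO means, squares wild-type means, lines the range over 5 libraries, and an asterisk marks genes at least 50% near-identical to others. Ldha leads with 526 in Grhl3 KO and 641 in wild type, Gapdh and Eno2 are lowest, and the ranges of the groups overlap for all 32 genes.

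Shares of paralogues overlapped between the groups. Hk1 made up 50.8 ± 4.60% of the Hk1 and Hk2 level per kb in Grhl3 KO and 49.3 ± 6.29% in wild type. Pfkl made up 58.5% of the phosphofructokinase level in Grhl3 KO and 59.4% in wild type, Pfkp 24.5% in Grhl3 KO and 25.7% in wild type, and Pfkm 16.9 ± 7.38% in Grhl3 KO and 14.9 ± 3.18% in wild type. The Pfkm share was the least even, with 8.48 to 26.5% in Grhl3 KO libraries and 12.0 to 19.6% in wild-type libraries. Without length scaling Pfkp made up 42.2% in Grhl3 KO and 43.5% in wild type. Pfkm then made up 7.43% in Grhl3 KO and 6.31% in wild type, so these shares depend on the exon lengths used. Aldoa held 98.7% against Aldoc in Grhl3 KO and 98.6% in wild type, and Eno1 99.5% against Eno2 in Grhl3 KO and 99.6% in wild type. Ldha held 99.4% against Ldhb, the form that favours pyruvate, in Grhl3 KO and 99.3% in wild type. Slc2a1 held 99.8% against Slc2a3, the neuronal and leukocyte glucose transporter, in both groups. Slc16a1 held 55.3 ± 2.78% against Slc16a3 in Grhl3 KO and 56.2 ± 9.57% in wild type, where library 1028 reached 72.9%.

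The coefficient of variation was larger in wild type for 23 of 32 genes, close to the 66.6% of all genes tested. Wild type 1528 had the highest level of the 10 libraries for 13 of the 32 genes, among them Ldha, Aldoa, Pgk1, Eno1, Pkm, Car9 and Vegfa, whereas it was highest for 13.5% of all genes. Wild type 1028 had the lowest level for 14, whereas it was lowest for 13.9% of all genes. The highest level was between 1.38 times the lowest, for Pfkp, and 4.83 times, for Eno2.

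The numbers of the wild-type libraries went with the levels of some of the 32 genes. In 10 of 32 genes (Slc16a1, Slc16a3, Gpi1, Aldoa, Gapdh, Pgk1, Pgam1, Eno1, Pkm and Ldha) wild type 1528, 1555 and 1561 all lay above both wild type 1028 and 1048, against 8.87% of all genes tested. In 2 genes, Ndrg1 and Ddit4, they all lay below, against 9.03% of all genes. Within the 7 libraries numbered from 1026 to 1048, 5 Grhl3 KO and 2 wild type, the median log2 fold change of the 32 genes was 0.10 and 13 had fitted levels below wild type. The sign of the fold change there was opposite to that over all 10 libraries for 17 of the 32 genes. Of the 8 effectors, 5 were then below. In 6 genes the groups did not overlap there, against 10.8% of all genes. Gapdh, Pgk1 and Pgam1, whose transcripts have near-identical stretches in other genes, had higher levels in all 5 Grhl3 KO libraries. Egln1, Ndrg1 and Ddit4 had lower ones. For Ddit4 the log2 fold change there was −0.45 and for Ndrg1 −0.90, and edgeR called 0 of the 32 genes, with adjusted p of 0.729 for Ddit4 and 0.684 for Ndrg1. Over all alternatives the adjusted p ran from 0.473 to 0.888 for Ddit4 and from 0.560 to 0.970 for Ndrg1. The fitted direction of the 17 genes thus turned without wild type 1528, 1555 and 1561. For Ldha, Aldoa, Eno1, Slc16a1, Slc16a3 and the effectors Car9, Vegfa and P4ha1 it held on leaving out each library in turn. For the rest of the 17 it also turned on leaving out a library, as for Hk2 (−0.11 to 0.17) and Egln3 (−0.17 to 0.13). Why these signs turned was not tested.

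Pgk1 and Ldha were correlated across the 10 libraries, with Pearson's r = 0.77 and Spearman's rho = 0.89 (permutation p = 0.0091 for r and 0.00117 for rho; 0.0592 and 0.00761 after adjustment over 13 pairs). Without wild type 1028 and 1528, which lay furthest out, r was 0.59, so the relation rests in part on them, and over the 7 libraries numbered from 1026 to 1048 it was 0.82. Both transcripts have near-identical copies elsewhere in the genome. Car9 and Ankrd37, both hypoxia markers, had r = 0.29 and rho = 0.15, and Egln3 and Ankrd37 r = 0.34 and rho = 0.36. Pgk1 had r = −0.42 with Pdk1, 0.31 with Bnip3 and 0.18 with Slc2a1. Car9 and Slc2a1 had r = 0.21, Vegfa and Ddit4 0.12, and Hk2 and Pfkp −0.29. None of these 8 pairs had an adjusted permutation p under 0.54 for r or rho.

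**Figure D5:**
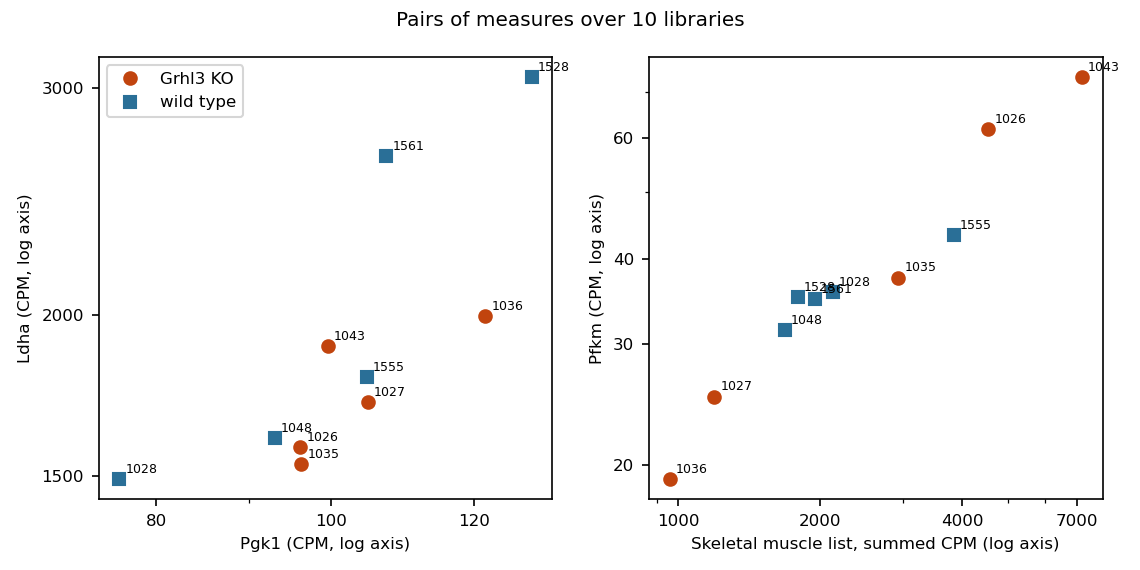
Pairs of measures over the 10 libraries on logarithmic axes: Ldha against Pgk1 in CPM, and Pfkm in CPM against the summed CPM of the skeletal muscle genes, with Grhl3 KO and wild-type libraries marked separately. Libraries with a higher muscle sum have more Pfkm in both groups (r = 0.97), and those with more Pgk1 have more Ldha (r = 0.77), where wild type 1528 has the highest value of both.

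Other genes of the pathway were read from lists chosen with earlier results known. Of 17 other glycolytic enzymes and transporters tested, 0 were called in either direction. Pfkfb4, a hypoxia-inducible relative of Pfkfb3, had 34.3, 56.7, 53.2, 74.4 and 82.9 CPM in Grhl3 KO, against 47.8, 21.5, 41.98, 39.0 and 29.4 CPM in wild type. In Grhl3 KO 4 of the 5 libraries lay above all wild-type libraries, and the log2 fold change of 0.75 (SE 0.26) did not pass (edgeR adjusted p = 0.534). Ldhb had 4.66 ± 1.02 CPM in Grhl3 KO, against 7.55 ± 3.19 CPM in wild type (log2 fold change −0.70, edgeR adjusted p = 0.668). Of 13 tested genes for HIF subunits and their regulators 0 were called: Epas1, the HIF2A gene, differed by 0.16, Arnt by −0.03 and Vhl, which marks hydroxylated HIF for destruction, by 0.08 on the log2 scale.

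Of 45 other genes reported as hypoxia-inducible, 1 rose and 0 fell, beside 0.0291% and 0.051% of all genes called higher and lower. The gene that rose was Edn1, which encodes the vasoconstrictor and mitogen endothelin. It had 17.6, 19.3, 10.9, 21.2 and 18.1 CPM in Grhl3 KO, against 7.12, 6.37, 4.96, 3.61 and 5.98 CPM in wild type, with no overlap. The log2 fold change was 1.63 (SE 0.22, edgeR adjusted p = 0.0318), and on leaving out each library in turn its call held in 4 of 10 cases. Within the 7 libraries numbered from 1026 to 1048 it was 1.37 (edgeR adjusted p = 0.439), and over all alternatives the adjusted p ran from 6.14e-09 with DESeq2 to that value. Mif, a cytokine gene with HIF sites, had 116, 120.1, 121, 125 and 123 CPM in Grhl3 KO, against 141, 131, 206, 142 and 158 CPM in wild type. All wild-type libraries lay above all Grhl3 KO libraries, and the log2 fold change of −0.36 (SE 0.12) did not pass (edgeR adjusted p = 0.478). Higd1a, a mitochondrial protein gene induced by hypoxia, had 103 ± 19.4 CPM in Grhl3 KO, against 152 ± 44.7 CPM in wild type (log2 fold change −0.57, edgeR adjusted p = 0.577). Edn1, Mif and Higd1a thus did not go one way. Of the 45 genes, 16 had fitted levels above and 29 below wild type, where 50.3% of all genes lay below. Their median log2 fold change was −0.04. Before adjustment 2 were higher and 3 lower at an edgeR p under 0.05, against 7.16% of all genes in either direction. Pfkfb4, given above and fitted higher, is also one of the 45.

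Of 13 genes for the entry of pyruvate into mitochondria and its use there 0 were called. Pdhb, a subunit of pyruvate dehydrogenase, had 73.9, 73.6, 73.0, 75.2 and 81.3 CPM in Grhl3 KO, against 64.9, 64.5, 72.8, 69.4 and 68.1 CPM in wild type. The groups did not overlap, by a small gap, and the log2 fold change was 0.15 (SE 0.07, edgeR adjusted p = 0.697). Dlat, another subunit, had 79.7 ± 3.36 CPM in Grhl3 KO, against 66.5 ± 9.15 CPM in wild type (log2 fold change 0.26, edgeR adjusted p = 0.575). Pdk4, a kinase induced by fasting and abundant in muscle, had 26.9 ± 16.3 CPM in Grhl3 KO, against 15.99 ± 5.08 CPM in wild type (log2 fold change 0.75, edgeR adjusted p = 0.749). Of 16 genes of the pentose phosphate and glycogen branches 0 were called, with Tkt, the transketolase, at 533 ± 69.4 CPM in Grhl3 KO, against 454 ± 56.9 CPM in wild type. Of 4 gluconeogenic genes tested 0 were called, and Fbp2, the muscle fructose bisphosphatase, had 40.9 ± 9.58 CPM in Grhl3 KO, against 31.6 ± 9.32 CPM in wild type.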

How the data were processed

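RNA-seq libraries of 5 Grhl3 KO mice, with tissue labelled as tumour, and 5 wild-type mice, with tissue labelled as oesophageal, were compared. The authors deposited raw integer counts, 1 row for each protein-coding gene. The submitters' processing notes name featureCounts and GRCm38. Aligner, annotation release and handling of multi-mapping reads are not named in the sources used. Per the labels' protocols, libraries were strand-specific and poly(A)-selected. Columns were joined to samples by the number in the title; 0 columns were left unused.

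The whole table was fitted with edgeR 4.0.16 (R 4.3.3): filterByExpr with a minimum count of 10, TMM scaling, robust quasi-likelihood F-test, Benjamini-Hochberg adjustment over 13731 genes, threshold 0.05. The SE was derived from that test, as the absolute log2 fold change divided by the square root of F. The 95% limits are the fold change plus and minus a t quantile times this SE, and are approximate. Single measures were compared by exact two-sided permutation over libraries (smallest possible p 0.00794). Library totals entered as counts and summed CPM on the log2 scale. Pairs were compared by 100000 permutations on log2 CPM, with an offset of 0.5 CPM for single genes and no offset for the muscle sum. Exon lengths come from GENCODE M21, which held 21919 of 22740 identifiers, and near-identity from blastn 2.17.0 (at least 75 bases at 95% identity). Promoters are RefSeq, GRCm38.p6. The fits were tested on simulated data.

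Named in every library were the 8 members of smallest p and 11 that stand for their roles, 16 genes in all since 3 met both, and up to 4 genes of smallest p per other list. Pfkfb4, Edn1, Mif and Pdhb are given per library, and Epas1, Arnt and Vhl are named, after their values were seen. Members and lists were chosen with earlier results of these data known. Alternatives were other scalings, DESeq2 1.42.0, limma voom (limma 3.58.1), other filters, non-robust dispersion, a skeletal muscle covariate or removal of those genes, the 7 libraries numbered from 1026 to 1048, and leaving out each library.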

Additional observations from a re-analysis of the deposited data

Results flagged for a closer look

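The sets of 5 libraries examined numbered 68 (each of the 32 genes, Grhl3 and the muscle sum in each group). In 9 of them the gap of a library to the nearest other, divided by the whole range, was above 0.71. Chance gives about 1 in 20 for independent, normally distributed values. The sets share the same 10 libraries and are not independent, so 9 of 68 cannot be read against that rate. Among Grhl3 KO libraries, 1043 stood apart for Slc16a3, with 104 CPM against 147 to 163 CPM in the others (gap 0.724), and for Gapdh, with 17.7 CPM against 10.8 to 12.7 CPM (0.726). Grhl3 KO 1036 stood apart for Pgam1, with 122 CPM against 94.4 to 99.1 CPM (0.826), and for Car9, with 24.9 CPM against 12.1 to 15.1 CPM (0.766). Grhl3 KO 1035 stood apart for Bnip3, with 88.1 CPM against 133 to 148 CPM (0.748). Among wild-type libraries, 1528 stood apart for Aldoc, with 32.1 CPM against 16.3 to 19.8 CPM (0.775), and for Ankrd37, with 29.95 CPM against 12.2 to 16.1 CPM (0.779). Wild type 1561 stood apart for Egln1, with 239 CPM against 322 to 355 CPM (0.711). Wild type 1555 stood apart for the summed skeletal muscle genes, with 3842 CPM against 1684 to 2126 CPM (0.795).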

How the results depend on the processing

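Over 21 alternatives 0 of the 32 genes were called, and the smallest adjusted p of any was 0.388 (Slc16a3). Of the 32, 9 kept the sign of their fold change in all alternatives. Of 819 combinations of an alternative with one of 39 named genes, members and others, 782 kept direction and side of the threshold. Over all genes 11 were called, against 130 by DESeq2 (61 higher, 69 lower), 1 by limma voom, 7 without a filter, 1 in the 7 libraries numbered from 1026 to 1048, and 1 to 16 on leaving out each library. Groups did not overlap for 0 to 1 of the 32 genes on leaving out each library. They did not overlap for 6 in those 7 libraries, only 2 of them wild type. Of all genes, 10.8% did not overlap there, against 1.35% over all 10 libraries. The sign turned there in 17 of the 32 genes. Those furthest from 0 were Gapdh (0.49) and Slc16a3 (0.40), and Eno2 (−0.20), Pfkl (0.20), Pkm (0.15), Tpi1 (0.14), Gpi1 (0.13), P4ha1 (0.10) and Egln3 (−0.01) also turned. Grhl3, which is not one of the 32, also turned, and the other values there were −0.10 for Grhl3, 0.0028 for Slc16a1, 0.10 for Eno1, 0.13 for Car9, 0.17 for Ldha, 0.15 for Aldoa, 0.22 for Vegfa, −0.15 for Pdk1 and −0.21 for Hk2; the cause was not tested. Hk2 turned to −0.0038 with RLE factors, to −0.0020 with DESeq2, to −0.012 with upper quartile factors and to −0.041 with the muscle covariate, which turned Pfkm to −0.086. Leaving out each library gave −0.056 to 0.41 for Grhl3, −0.075 to 0.12 for Slc2a1, −0.11 to 0.17 for Hk2, −0.017 to 0.44 for Pfkm, −0.073 to 0.12 for Pgk1, −0.063 to 0.12 for Pdk1 and −0.14 to 0.59 for the muscle sum. Edn1 lost its call with limma voom (1.59, adjusted p = 0.0961), in the 7 libraries and in 6 of 10 left-out cases. Without length scaling, wild-type shares were 58.1% for Hk1, 50.2% for Pfkl, 43.5% for Pfkp, 6.31% for Pfkm, 99.65% for Ldha and 99.57% for Slc2a1. In a window of 150 bases, 40% of promoter windows held ACGTG, against 14.4% for all genes tested and 11.2% of all windows. No paired analysis was run. The groups share no replicate numbers, and whether any libraries form pairs is not given. Eno2 had 8 to 65 counts per library.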
